A study of Mus musculus with 27 samples.

Results

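The 9 genes described here encode innate immune sensors of the cytosol and the proteins that act directly below them: the inflammasome sensors Nlrp3, Nlrp1b and Aim2, the peptidoglycan sensors Nod1 and Nod2, the adaptor Pycard (ASC), the inflammatory caspases Casp1 and Casp4, and the pore-forming protein Gsdmd. They were taken by gene symbol from the deposited table of normalized read counts, where all 9 were found among 45070 genes. Each of the 9 also passed the filter for testing, a value of 10 or more in 3 or more of the 27 samples, which left 13901 genes. Bone marrow-derived macrophages (BMDMs), which are primary cells grown in culture, were obtained from wild type male C57/BL6 mice aged 6 to 8 weeks. All cells, the untreated ones included, had been kept for 1 h in DMSO, a solvent used as vehicle. They were then left untreated or were stimulated with LPS, a component of the bacterial outer membrane, or with the cytokine IL-4, both used at 10 ng/ml, and were collected 0.5, 1, 2 or 4 h later. Chromatin-associated RNA, the fraction that is rich in transcripts still being made, was sequenced in 3 replicates for each of the 9 groups. Whether the replicates came from separate animals or cultures was not given in the sources used here, so p-values measure the spread between these samples, which may be technical.

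Inflammasomes are cytosolic complexes in which a sensor, activated by a microbial or damage signal, recruits the adaptor ASC and through it pro-caspase-1. Active caspase-1 cuts the precursors of IL-1β and IL-18 and cuts gasdermin D, whose released fragment forms pores in the plasma membrane and leads to pyroptosis. Caspase-4 of the mouse, long known as caspase-11, binds cytosolic LPS directly and cuts gasdermin D without a separate sensor, whereas NOD1 and NOD2 bind peptidoglycan fragments and signal through RIPK2 to NF-κB. In macrophages, the expression of several of these genes is known to rise in a priming step that precedes activation. RNA on chromatin reports the first of these steps and says nothing of the assembly of the complexes, of the proteins or of cleavage.

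The libraries held between 2488987 and 2578543 normalized read counts in untreated cells, between 3571492 and 4058199 after LPS and between 2469768 and 2790981 after IL-4, so the invariant-gene scaling of the authors left LPS libraries with the larger totals. Against untreated cells, the median log2 fold change over every tested gene lay between −0.30 and −0.24 over the 4 LPS time points, and member changes can be read against that shift. The split of calls moved with the scaling. At 4 h of LPS, 3595 genes were higher and 5233 lower as deposited, 2426 higher and 7808 lower with totals made equal, and 4311 higher and 4388 lower after median-of-ratios scaling. At 0.5 h of IL-4 the split was 1133 higher and 1132 lower as deposited against 936 higher and 2040 lower with equal totals. Replicate 1 stood apart from replicates 2 and 3 in every group: over 620 genes whose mean was 1000 or more, the SD of the log2 difference was 0.138 to 0.287 between replicates 2 and 3 and 0.37 or more between replicate 1 and either of them. The 7 macrophage markers fixed for the check all reached 10 normalized read counts, and their sum ranged from 9579 to 17755 over the libraries. Sums of T or NK cell, B cell, erythroid and mast cell markers stayed at or below 14, those of 5 neutrophil markers at or below 28, those of 4 dendritic cell markers at or below 98 and those of 4 fibroblast markers at or below 217. The dendritic cell sum was 47 to 98 at 1 h of LPS and at most 28 in any other group, and the fibroblast sum was 37 to 88 in untreated cells and 28 to 217 over the treated groups, with the groups' ranges overlapping. The part of these signals in the results was not tested. In bulk samples fewer cells of a type and less RNA per cell cannot be told apart.

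Promoter sequences are shown for 4 members, whose calls against untreated cells were as follows. Nlrp3 and Casp4 were called higher from the first LPS time point and also at 0.5 h of IL-4, but lower at 2 and 4 h of IL-4. Nod2 was called higher under LPS and lower under IL-4 at all 4 times, and Nlrp1b was lower at the late time points of both. These calls do not sort the whole courses. Over the 9 group means, Casp4 was more like Nod2 (Pearson r = 0.974) than like Nlrp3 (0.891). The windows are from RefSeq (GRCm38.p6) and run 5′ to 3′ on the strand of the gene from 250 bases before to 50 bases after an annotated start. Of the 9 members, 8 had a window, with 12 windows in all. Each window was searched on both strands for the NF-κB consensus (by name) and for GAAANNGAAA, TTCNNNNGAA, TTCNNNGAA and TGANTCA, spacings known from interferon-responsive elements, STAT6 sites, other STAT sites and AP-1. Capitals mark the matches. The Nlrp3 window at its upstream start is at chr11:59541319-59541618 (+), the Casp4 window at chr9:5308599-5308898 (+), the Nod2 window at chr8:88647097-88647396 (+) and the Nlrp1b window at its upstream start at chr11:71230684-71230983 (−).
Nlrp3: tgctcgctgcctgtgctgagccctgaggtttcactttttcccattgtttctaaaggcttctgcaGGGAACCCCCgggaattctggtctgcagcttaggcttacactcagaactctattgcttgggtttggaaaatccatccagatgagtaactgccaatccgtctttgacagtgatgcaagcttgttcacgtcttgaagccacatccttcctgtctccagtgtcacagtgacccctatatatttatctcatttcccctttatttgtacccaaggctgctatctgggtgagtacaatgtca
Casp4: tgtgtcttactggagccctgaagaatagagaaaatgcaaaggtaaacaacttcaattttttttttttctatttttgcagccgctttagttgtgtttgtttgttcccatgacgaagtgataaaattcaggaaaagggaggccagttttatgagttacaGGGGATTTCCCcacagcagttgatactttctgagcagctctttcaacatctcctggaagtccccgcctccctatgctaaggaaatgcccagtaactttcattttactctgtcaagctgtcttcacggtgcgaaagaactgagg
Nod2: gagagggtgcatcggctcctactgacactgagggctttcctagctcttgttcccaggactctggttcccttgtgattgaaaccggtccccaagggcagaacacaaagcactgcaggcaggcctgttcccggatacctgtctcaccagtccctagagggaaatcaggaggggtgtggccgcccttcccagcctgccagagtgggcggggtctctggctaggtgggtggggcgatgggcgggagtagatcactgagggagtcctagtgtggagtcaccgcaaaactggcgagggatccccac
Nlrp1b: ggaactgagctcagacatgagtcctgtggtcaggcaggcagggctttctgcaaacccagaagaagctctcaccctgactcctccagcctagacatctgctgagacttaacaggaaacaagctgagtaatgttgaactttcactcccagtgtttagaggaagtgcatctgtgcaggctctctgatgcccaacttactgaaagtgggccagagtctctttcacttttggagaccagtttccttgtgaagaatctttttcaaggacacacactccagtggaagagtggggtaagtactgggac
Nlrp3 held 1 match to the NF-κB consensus, on the minus strand from −186 to −177 relative to the start. Casp4 held 3 overlapping matches that together span 11 bases, from −93 to −83. The Nod2 window and this Nlrp1b window held no match to any of the 5 motifs. Of all 32851 promoter windows of this length, 4.51% held the NF-κB consensus, 3.44% GAAANNGAAA, 6.95% TTCNNNNGAA, 8.30% TTCNNNGAA and 7.81% TGANTCA. Among the other member windows, the downstream starts of Nlrp3 and of Nlrp1b each held 1 TTCNNNNGAA and a downstream start of Nod1 held 1 TTCNNNGAA, while the NF-κB consensus also stood in the window of the start of Casp4 that lies 11 bases further on. A match is a stretch of letters, and binding was not measured here.

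At 2 and 4 h of LPS, 8 of the 9 members were higher than in untreated cells and Nlrp1b was lower. The courses differed in time. Nlrp3 and Casp4 were already high at 0.5 h, Nod2 and Nod1 climbed in steps, and Casp1, Gsdmd and Pycard were raised late. By limma on log2(value + 1), with p-values adjusted over all 13901 genes and a threshold of 0.05, 6 members were higher and 1 was lower at 0.5 h, against 19.6% of all tested genes called higher and 34.4% called lower. At 1 h, 7 members were higher and 1 was lower (all tested genes: 24.8% higher, 39.0% lower). At 2 h, 8 were higher and 1 was lower (all tested genes: 26.9% higher, 39.0% lower), and the same counts were found at 4 h (25.9% higher, 37.6% lower). All 9 passed the F test of the LPS course, as did 87.6% of the tested genes. The median member log2 fold change rose from 1.31 at 0.5 h to 1.42, 2.73 and 2.90 at 1, 2 and 4 h, whereas the median over all tested genes stayed below 0 at each time.

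**Figure D1:**
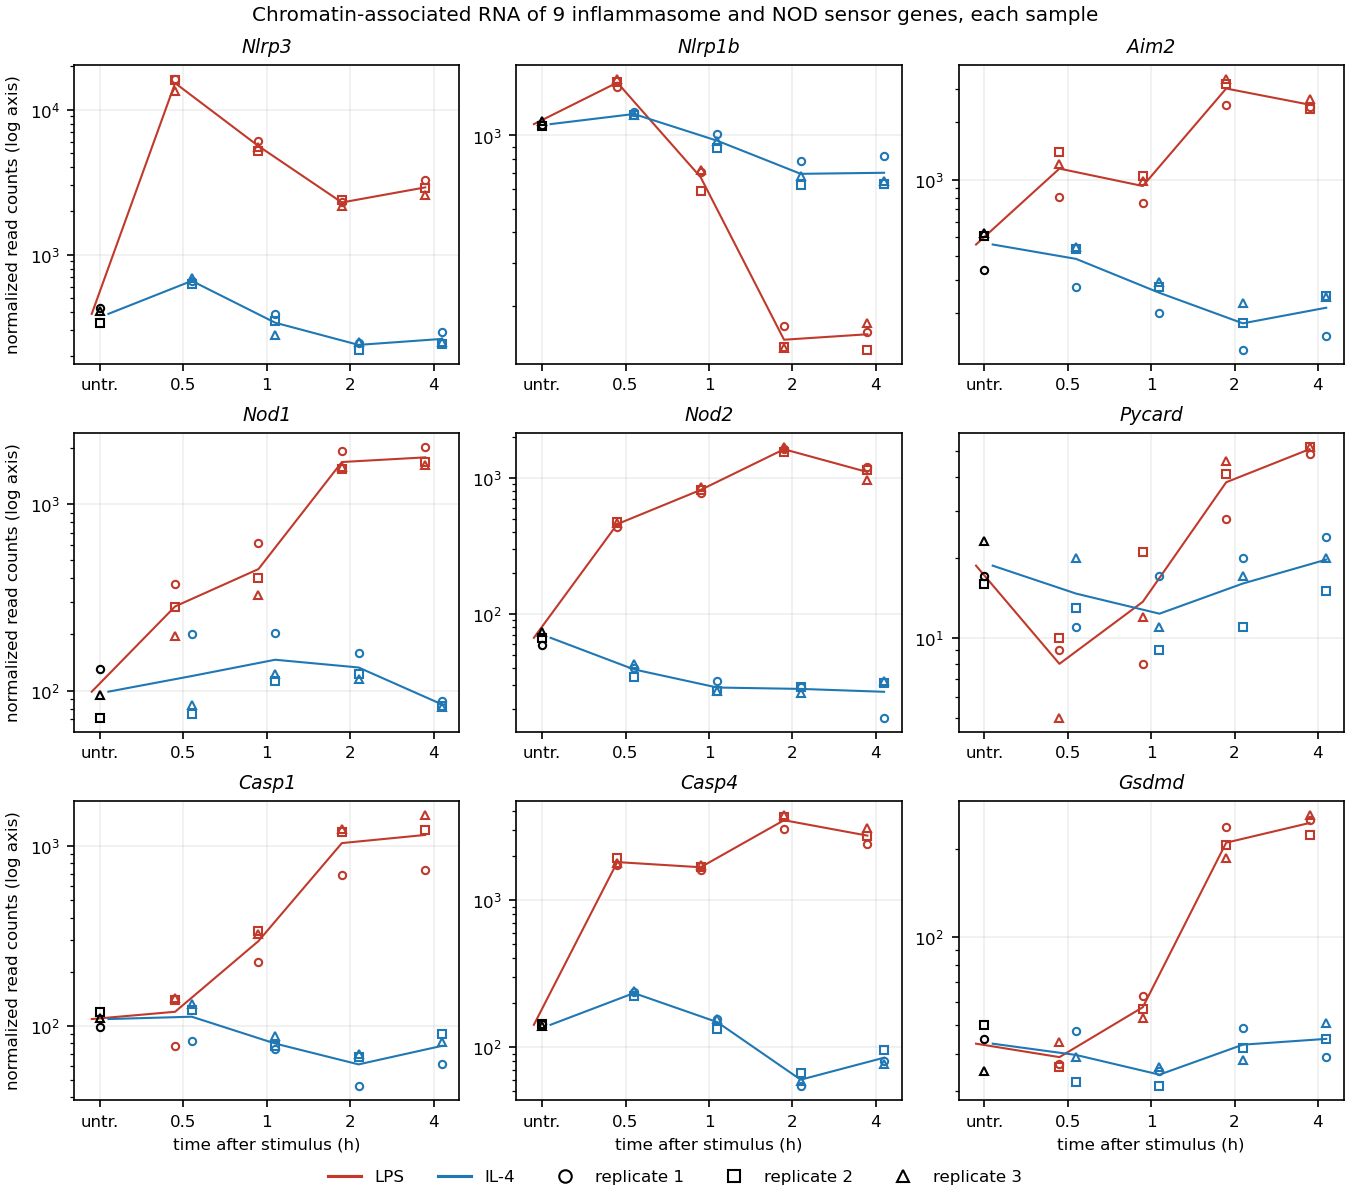
Normalized read counts of the 9 genes (log axis, with a range of its own in each panel) against time after stimulus, with untreated cells at the left. Open symbols are the 3 replicates and lines join the group means of LPS (red) and IL-4 (blue). The Nlrp3 panel is highest at 0.5 h of LPS (mean 15252), while Casp1 and Gsdmd reach their highest means at 4 h (1152 and 244).

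Nlrp3, the sensor of potassium efflux and many other forms of cell stress (chromosome 11, 59541569 to 59566955, plus strand), had the largest rise, already reached at 0.5 h. Untreated replicates 1, 2 and 3 held 427, 335 and 408 normalized read counts. LPS brought them to 16319, 15974 and 13463 at 0.5 h, followed by 6062, 5202 and 5556 at 1 h, by 2311, 2376 and 2179 at 2 h and by 3290, 2860 and 2577 at 4 h. No LPS sample overlapped an untreated one, and the 4 time points did not overlap each other. The log2 fold change was 5.29 ± 0.12 (SE, n = 3 per group) at 0.5 h (limma, adjusted p = 7.43e-14) and was 3.85, 2.56 and 2.90 afterwards. Levels fell by 1.44 on the log2 scale from 0.5 to 1 h and by 1.29 from 1 to 2 h, both past the threshold, and the last step of 0.34 missed it (adjusted p = 0.0618).

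Nlrp1b, the sensor that is cleaved by the lethal factor protease of anthrax in susceptible mouse strains (chromosome 11, 71153102 to 71230733, minus strand), was the member that LPS lowered from 1 h on. It stood at 1108, 1090 and 1143 in untreated cells, and LPS samples held 1576, 1666 and 1710 at 0.5 h, followed by 706, 592 and 723 at 1 h, by 165, 135 and 134 at 2 h and by 156, 131 and 170 at 4 h. All 3 replicates were thus above untreated at 0.5 h and below it from 1 h on, and the 2 and 4 h samples overlapped. The log2 fold change was 0.57 ± 0.12 (SE, n = 3) at 0.5 h, −0.73 at 1 h, −2.94 at 2 h (limma, adjusted p = 1.48e-11) and −2.87 at 4 h. The early rise depended on the scaling, being 0.06 (adjusted p = 0.723) with library totals made equal. Its paralog Nlrp1a, which belongs to the same receptor group, stood at 107 ± 24.8 (SD, n = 3) in untreated cells and at 99.0 ± 15.7, 22.7 ± 5.13, 19.7 ± 10.4 and 33.0 ± 11.0 over the LPS course, and passed the F test of that course (adjusted p = 1.77e-05). Reads with more than 1 alignment had been removed by the authors, so stretches shared by paralogs may be undercounted.

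Aim2, a sensor of cytosolic double-stranded DNA (chromosome 1, 173420604 to 173466040, plus strand), rose in a pair of stages. The untreated values of 338, 510 and 526 increased under LPS to 816, 1399 and 1216 at 0.5 h, stood at 756, 1042 and 983 at 1 h, and reached 2472, 3163 and 3377 at 2 h and 2403, 2360 and 2655 at 4 h. Every LPS sample was above the untreated ones, whereas 0.5 and 1 h overlapped, as did 2 and 4 h. Log2 fold changes of 1.31 ± 0.21 (SE, n = 3), 1.03, 2.73 and 2.46 all passed, and among the steps only the one from 1 to 2 h did (1.70, limma, adjusted p = 6.55e-06). With equal totals the change at 1 h was 0.45 (adjusted p = 0.0671).

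Nod1, a sensor of diaminopimelic acid-containing peptidoglycan fragments (chromosome 6, 54923942 to 54972612, minus strand), and Nod2, a sensor of muramyl dipeptide (chromosome 8, 88647347 to 88688474, plus strand), both climbed. Nod1 was measured at 130, 71 and 95 in untreated cells and under LPS at 371, 280 and 197, then 620, 400 and 325, then 1929, 1534 and 1580, and at 4 h at 2025, 1689 and 1627. The LPS samples lay above all untreated ones, with overlap between 0.5 and 1 h and between 2 and 4 h, and replicate 1 was the highest in each of these groups. Its log2 fold change grew from 1.5 ± 0.26 (SE, n = 3) to 2.16, 4.11 and 4.20 (limma, adjusted p = 1.21e-09 at 4 h).

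Nod2 values of 59, 67 and 74 in untreated cells became 439, 474 and 464 at 0.5 h of LPS, followed by 781, 813 and 866 at 1 h, by 1642, 1565 and 1701 at 2 h and by 1210, 1152 and 970 at 4 h. Its 5 groups did not overlap anywhere, and all 3 steps between time points passed the test, which held for no other member. The log2 fold change was 2.77 ± 0.11 (SE, n = 3) at 0.5 h, 3.61 at 1 h, 4.60 at 2 h (limma, adjusted p = 5.32e-14) and 4.04 at 4 h, after a last step of −0.56 (adjusted p = 0.00182). Without replicate 2 and without replicate 3, no member passed at that last step. Over all tested genes it then called 1221 and 1115, in place of 3190.

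Pycard, the adaptor that joins sensor and caspase-1 through its pyrin and CARD domains (chromosome 7, 127991373 to 127993867, minus strand), had the smallest rise of the members that were higher at 4 h. Untreated samples held 17, 16 and 23 normalized read counts, and LPS samples 9, 10 and 5 at 0.5 h, followed by 8, 21 and 12 at 1 h, by 28, 41 and 46 at 2 h and by 49, 52 and 52 at 4 h. Samples at 0.5 h lay below all untreated ones, those at 1 h overlapped them and those at 2 and 4 h lay above. The log2 fold change was −1.16 ± 0.33 (SE, n = 3) at 0.5 h (limma, adjusted p = 0.00801), −0.50 at 1 h (adjusted p = 0.196), 0.99 at 2 h (adjusted p = 0.0162) and 1.42 at 4 h (adjusted p = 0.00155). With equal totals the 1 h value was −1.05 and passed (adjusted p = 0.00971), and the 4 h rise was 0.83 (adjusted p = 0.0323). The early fall was −0.74 (adjusted p = 0.213) without replicate 3. In the course as a whole its largest change was the 4 h rise, but it was the 0.5 h fall with equal totals (−1.63) and without replicate 2 (−1.42). The 2 h value lost its call with equal totals (0.35, adjusted p = 0.340), without replicate 2 (0.83, adjusted p = 0.111) and without replicate 3 (1.00, adjusted p = 0.0822).

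Casp1, which encodes the protease that matures IL-1β and IL-18 (chromosome 9, 5298517 to 5307281, plus strand), and Casp4, its neighbor on the same strand with 1567 bases between them (chromosome 9, 5308849 to 5336791, plus strand), followed different courses. Casp1 stood at 98, 119 and 110 in untreated cells and at 77, 139 and 143 after 0.5 h of LPS, then at 227, 336 and 325, at 687, 1191 and 1235, and at 736, 1233 and 1486. At 0.5 h its samples overlapped the untreated ones, from 1 h on they did not, and replicate 1 was the lowest in every LPS group. The log2 fold changes were 0.08 ± 0.29 (SE, n = 3; limma, adjusted p = 0.826), 1.42, 3.20 and 3.33 (adjusted p = 6.95e-08 at 4 h). Without replicate 1 the 0.5 h change was 0.30 and passed (adjusted p = 0.0248).

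Casp4 held 143, 144 and 138 in untreated cells, and LPS samples held 1713, 1915 and 1791 at 0.5 h, followed by 1589, 1679 and 1732 at 1 h, by 3036, 3630 and 3772 at 2 h and by 2404, 2724 and 3075 at 4 h. Even the lowest of these lay above the untreated samples, with overlap between 0.5 and 1 h and between 2 and 4 h. Log2 fold changes were 3.66 ± 0.11 (SE, n = 3), 3.55, 4.60 (limma, adjusted p = 5.32e-14) and 4.25. The steps of 1.06 from 1 to 2 h and −0.35 from 2 to 4 h passed the test (adjusted p = 0.0330 for the latter).

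Gsdmd, the pore former cut by both caspases (chromosome 15, 75862339 to 75867404, plus strand), rose late. It was measured at 45, 50 and 35 in untreated cells and under LPS at 37, 36 and 44, then 63, 57 and 53, then 237, 205 and 186, and at 4 h at 250, 223 and 260. The first of these groups overlapped the untreated samples and the later ones did not. Its log2 fold change was −0.14 ± 0.16 (SE, n = 3) at 0.5 h (limma, adjusted p = 0.495), 0.42 at 1 h (adjusted p = 0.0357), 2.25 at 2 h and 2.48 at 4 h (adjusted p = 2.47e-09). The 1 h call was lost without any 1 replicate, with values from 0.33 to 0.53, and with equal totals the change was −0.16 at 1 h (adjusted p = 0.414) and −0.64 at 0.5 h (adjusted p = 0.00334).

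Between neighboring LPS time points, 6 members changed from 0.5 to 1 h (all tested genes: 49.7%), all 9 from 1 to 2 h (43.3%) and 2 from 2 to 4 h (22.9%). From 0.5 to 1 h, Nod1, Nod2, Casp1 and Gsdmd rose while Nlrp3 and Nlrp1b fell. From 1 to 2 h the other 7 members rose and the same pair fell, and from 2 to 4 h Nod2 and Casp4 fell. With equal totals the first step of Nod1 (0.59, adjusted p = 0.0661) and the last of Casp4 (−0.30, adjusted p = 0.0815) lost their calls, and the last step of Nlrp3 passed (0.39, adjusted p = 0.0299).

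After IL-4, the cytokine that drives alternative activation of macrophages through STAT6, changes were smaller, and from 1 h on the members that were called were lower than in untreated cells. At 0.5 h, Nlrp3 and Casp4 were higher and Nod2 was lower. The number of members called was 2 higher and 1 lower at 0.5 h (all tested genes: 8.15% higher, 8.14% lower), 0 higher and 2 lower at 1 h (11.1% higher, 9.83% lower), 0 higher and 6 lower at 2 h (14.3% higher, 13.2% lower) and 0 higher and 5 lower at 4 h (13.4% higher, 12.5% lower). In the F test of the IL-4 course 6 members passed, against 40.3% of the tested genes. The largest change of these was upward for Nlrp3 and downward for Nlrp1b, Aim2, Nod2, Casp1 and Casp4. For Nlrp3 the 2 h fall was the larger with equal totals (−0.73) and without replicate 2 (−0.75). Several IL-4 calls depended on which replicate number was left out, which removes that replicate from every group. Without replicate 1 the counts were 3, 5, 7 and 6 at the 4 times. Without replicate 2 the count at 0.5 h was 1 and at 1 h was 0, and without replicate 3 it was 0 at 1 h and 3 at 4 h. Calls over all tested genes at 1 h moved in the same directions, from 2913 to 3814 without replicate 1, 1305 without replicate 2 and 1318 without replicate 3. Without replicate 2 or without replicate 3, the IL-4 course called 3 members. Over all tested genes that course called 2234 and 2169 in these settings, in place of 5606.

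**Figure D2:**
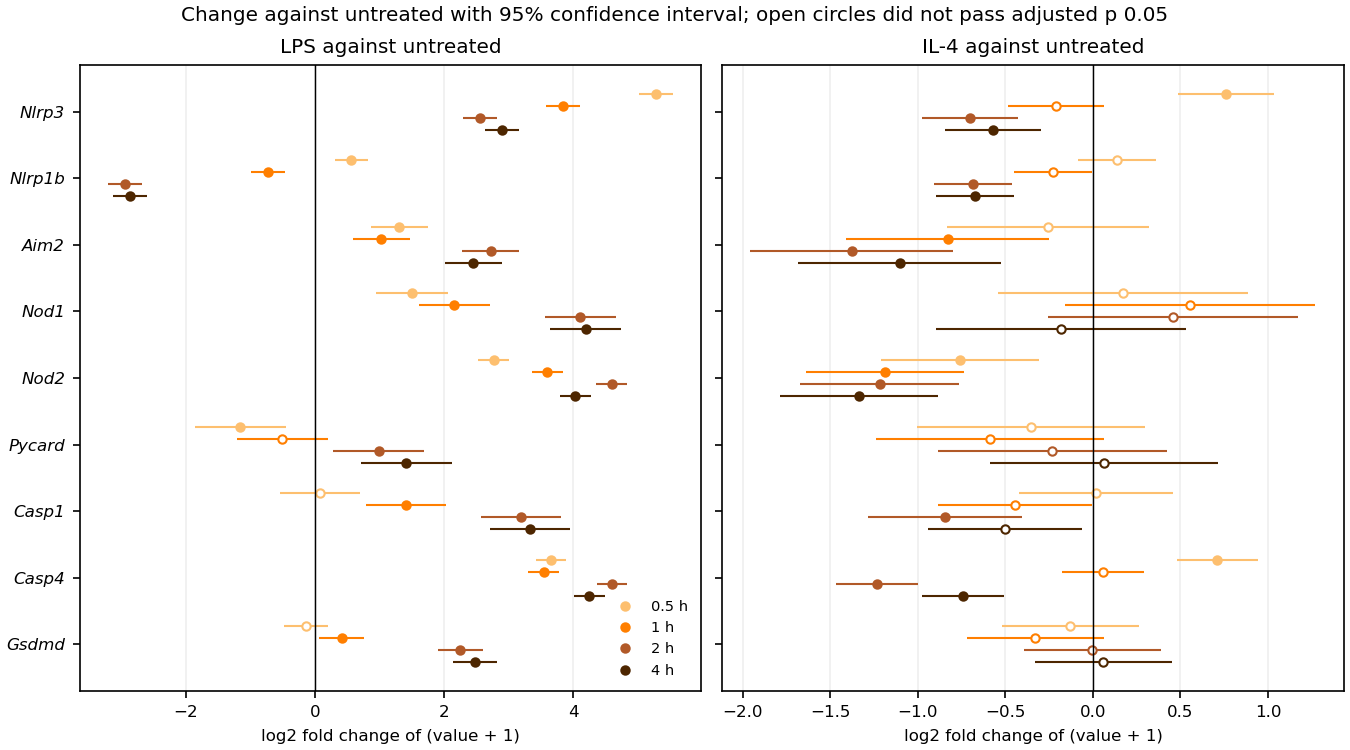
Log2 fold change of (value + 1) against untreated cells for the 9 genes at the 4 times of LPS (left) and IL-4 (right), with 95% confidence intervals from limma. The panels have different horizontal ranges. Under LPS the changes run from −2.94 (Nlrp1b at 2 h) to 5.29 (Nlrp3 at 0.5 h), and under IL-4 from −1.38 (Aim2 at 2 h) to 0.76 (Nlrp3 at 0.5 h).

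The early IL-4 rise of Nlrp3 and Casp4 was small beside that under LPS. Nlrp3 held 659, 630 and 687 at 0.5 h of IL-4, followed by 391, 349 and 277 at 1 h, by 247, 219 and 249 at 2 h and by 294, 243 and 249 at 4 h. Those at 0.5 h were all above the untreated samples given above, those at 1 h overlapped them, and those at 2 and 4 h were all below. The log2 fold change was 0.76 ± 0.13 (SE, n = 3) at 0.5 h (limma, adjusted p = 0.000833), −0.21 at 1 h (adjusted p = 0.299), −0.70 at 2 h (adjusted p = 0.000893) and −0.57 at 4 h (adjusted p = 0.00456). Without replicate 2 the rise was 0.69 (adjusted p = 0.0563), and without replicate 3 the 4 h value was −0.50 (adjusted p = 0.0792).

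In the same libraries Casp4 was at 238, 221 and 239 at 0.5 h, followed by 156, 132 and 155 at 1 h, by 54, 67 and 59 at 2 h and by 81, 96 and 77 at 4 h. Like Nlrp3 it was above untreated in 3 of 3 replicates at 0.5 h, overlapped it at 1 h and was below it in 3 of 3 replicates at 2 and 4 h. Its log2 fold changes were 0.71 ± 0.11 (SE, n = 3; limma, adjusted p = 0.000389), 0.06, −1.23 (adjusted p = 1.55e-06) and −0.74 (adjusted p = 0.000173). It was the member that changed at all 3 IL-4 steps, by −0.66, −1.29 and 0.49.

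Nod2 was lower at each IL-4 time point. IL-4 samples held 40, 34 and 43 at 0.5 h, followed by 32, 27 and 27 at 1 h, by 29, 29 and 26 at 2 h and by 17, 31 and 32 at 4 h, all below the lowest untreated sample at 59. The log2 fold changes were −0.76 ± 0.21 (SE, n = 3; limma, adjusted p = 0.0234), −1.19, −1.22 and −1.34 (adjusted p = 0.000319). The 0.5 h call was lost without replicate 2 (−0.66, adjusted p = 0.308) and without replicate 3 (−0.75, adjusted p = 0.204), and the 1 h call likewise (−1.14, adjusted p = 0.0552, and −1.07, adjusted p = 0.0594).

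Aim2 held 274, 434 and 447 at 0.5 h of IL-4, followed by 201, 273 and 293 at 1 h, by 128, 177 and 226 at 2 h and by 152, 245 and 244 at 4 h. The 0.5 h samples overlapped the untreated ones and all later samples lay below them, replicate 1 being the lowest in each group. Log2 fold changes were −0.26 ± 0.27 (SE, n = 3; limma, adjusted p = 0.609), −0.83 (adjusted p = 0.0423), −1.38 (adjusted p = 0.00157) and −1.10 (adjusted p = 0.00777). Without replicate 2 none of these passed, with −0.79 (adjusted p = 0.311), −1.30 (adjusted p = 0.0715) and −1.13 (adjusted p = 0.117) from 1 h on, and without replicate 3 the values at 1 h (−0.82, adjusted p = 0.201) and 4 h (−1.10, adjusted p = 0.08) did not.

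Nlrp1b under IL-4 was at 1244, 1217 and 1216, then 1018, 889 and 947, then 783, 623 and 681, and at 4 h at 827, 633 and 648. All 2 and 4 h samples were below the untreated ones. The log2 fold changes were 0.14 ± 0.10 (SE, n = 3; limma, adjusted p = 0.441), −0.23 (adjusted p = 0.148), −0.68 (adjusted p = 0.000217) and −0.67 (adjusted p = 0.000273), so Nlrp1b was the member called lower at 2 and 4 h of both stimuli. With equal totals the 1 h change passed (−0.33, adjusted p = 0.0435).

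Casp1 under IL-4 was at 82, 123 and 132 at 0.5 h, followed by 74, 77 and 88 at 1 h, by 46, 67 and 70 at 2 h and by 61, 90 and 81 at 4 h. Samples from 1 h on lay below the untreated ones, but only the 2 h change of −0.85 ± 0.20 (SE, n = 3) passed (limma, adjusted p = 0.00670). It was −0.86 without replicate 2 (adjusted p = 0.0941) and −0.95 without replicate 3 (adjusted p = 0.0649). The 4 h change was −0.50 (adjusted p = 0.0902) with all samples and −0.42 without replicate 1 (adjusted p = 0.0190).

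Nod1, Pycard and Gsdmd passed no IL-4 comparison with all samples. Nod1 ranged from 75 to 203 over the IL-4 samples, Pycard from 9 to 24 and Gsdmd from 31 to 51. All of these ranges overlapped the untreated samples of the same gene. At 4 h the 95% confidence interval of the log2 fold change was −0.90 to 0.53 for Nod1, −0.59 to 0.72 for Pycard and −0.33 to 0.45 for Gsdmd. Changes within these limits were not excluded. Without replicate 1, Nod1 was called higher at 1 h (0.52, adjusted p = 0.0218) and at 2 h (0.53, adjusted p = 0.0154), and replicate 1 of Nod1 stood at 200 at 0.5 h where the others held 75 and 84.

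The IL-4 steps called 3 members from 0.5 to 1 h (all tested genes: 7.82%), 3 from 1 to 2 h (9.40%) and 1 from 2 to 4 h (5.48%). Nlrp3, Nlrp1b and Casp4 fell in the first and second steps, and Casp4 rose in the last. With equal totals the first step of Nlrp1b (−0.34, adjusted p = 0.0756) and the second of Nlrp3 (−0.42, adjusted p = 0.0560) lost their calls. Without replicate 1 the first step called 6, and without replicate 2 or without replicate 3 the 3 steps called 0, 1 and 0. Calls over all tested genes moved in the same directions. The first step called 1930 genes without replicate 1, in place of 1087. The 3 steps called 68, 166 and 11 genes without replicate 2 and 80, 203 and 32 without replicate 3, in place of 1087, 1306 and 762.

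A direct contrast of LPS with IL-4 at equal times, fitted over all 27 samples, asked whether the stimuli differed. With LPS, 6 members were higher and 1 lower at 0.5 h than with IL-4 (all tested genes: 18.0% higher, 35.8% lower), 7 higher and 1 lower at 1 h (24.0% higher, 40.5% lower), 8 higher and 1 lower at 2 h (26.4% higher, 42.3% lower), and 8 higher and 1 lower at 4 h (26.1% higher, 41.9% lower). The member lower with LPS was Pycard at 0.5 h (−0.81, limma, adjusted p = 0.0422) and Nlrp1b at 1, 2 and 4 h (−0.50, −2.26 and −2.20). The Pycard difference was −0.31 (adjusted p = 0.638) without replicate 3 and −0.57 (adjusted p = 0.140) after median-of-ratios scaling, which also ended the Nlrp1b call at 1 h (−0.21, adjusted p = 0.215). The Nlrp1b difference at 0.5 h, 0.43 as deposited, was 0.04 with equal totals (adjusted p = 0.781) and 0.40 without replicate 3 (adjusted p = 0.0797). Equal totals also ended the Gsdmd call at 1 h, with 0.28 (adjusted p = 0.147) in place of 0.74, and without replicate 2 the Nod1 difference at 0.5 h was 1.05 (adjusted p = 0.0605, against 1.33). Pycard at 2 h had a difference of 1.22, of 0.61 with equal totals (adjusted p = 0.0921) and of 0.93 without replicate 2 (adjusted p = 0.0535).

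The widest differences were those of Casp4 and Nod2. Casp4 differed by 2.95, 3.49, 5.83 and 5.00 on the log2 scale over the 4 times, and Nod2 by 3.53, 4.79, 5.82 and 5.37. For Nlrp3 the difference was largest at 0.5 h (4.53) and was 4.06, 3.26 and 3.47 later. Gsdmd did not differ past the threshold at 0.5 h (−0.01, 95% confidence interval −0.35 to 0.33), nor did Casp1 (0.07, −0.50 to 0.63), and both differed at 4 h by 2.42 and 3.84.

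**Figure D3:**
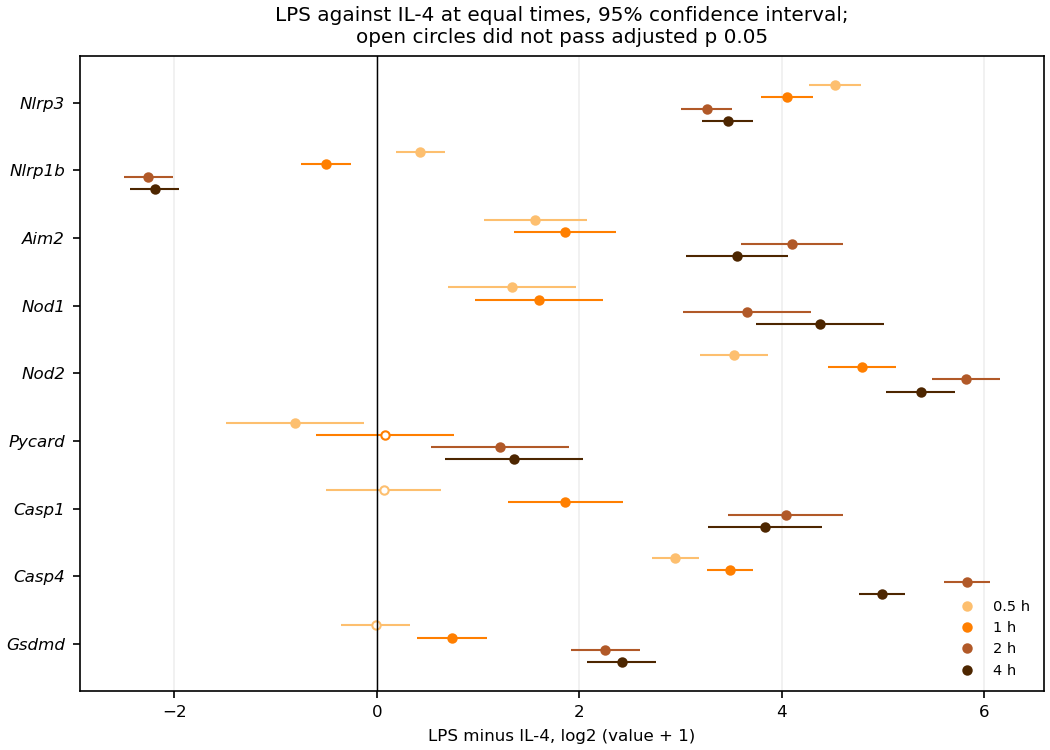
Difference between LPS and IL-4 samples at equal times on the log2 (value + 1) scale for the 9 genes, with 95% confidence intervals from limma over all 27 samples. Values right of 0 are higher with LPS. Nlrp1b lies at 0.43 at 0.5 h (0.04 with equal totals) and at −2.26 at 2 h, and Nod2 and Casp4 reach 5.82 and 5.83 at 2 h.

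The other genes of these pathways were followed in 5 lists with 60 genes in all, with the untreated samples shared by both courses. Over all tested genes, 87.6% passed the LPS course, 32.9% with a largest change upward and 54.7% downward, and 40.3% passed the IL-4 course, 19.4% upward and 20.9% downward, so that passing the LPS course is common to most genes. Among AIM2-like receptors, the interferon-inducible family to which Aim2 belongs and whose genes are near-identical copies in part, 11 of 12 were in the table and were tested, and all 11 passed the LPS course with a largest change upward. Their median log2 fold change at 4 h was 6.02, against −0.26 over all tested genes. Ifi205 went from 5.00 ± 1.00 (SD, n = 3) to 3300 ± 638 at 4 h of LPS, Ifi208 from 7.67 ± 2.52 to 668 ± 133 and Ifi214 from 0.667 ± 0.577 to 253 ± 82.5. Under IL-4, 8 of the 11 passed, 4 with an upward and 4 with a downward largest change, and 5 passed without replicate 3. Ifi211 was higher at 0.5 h (73.3 ± 9.71 against 29.3 ± 7.02, log2 fold change 1.31) and Ifi209 was lower at 4 h (25.3 ± 2.52 against 57.7 ± 12.7, −1.14).

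Of 14 other NLR and pyrin sensors, 10 were tested, and LPS moved 4 up and 6 down at their largest change (all tested genes: 32.9% and 54.7%). Mefv, which encodes pyrin, went from 7.0 ± 2.0 (SD, n = 3) to 256 ± 47.4 at 4 h, and Nlrc5, the transactivator of MHC class I genes, from 347 ± 28.8 to 8009 ± 464, whereas Nlrc3 went from 51.3 ± 14.8 to 6.0 ± 1.0. Nlrc4, the adaptor of the NAIP sensors, stood at 85.3 ± 14.7 in untreated cells, at 235 ± 17.0 after 0.5 h of LPS and at 26.3 ± 7.37 after 2 h, with log2 fold changes of 1.46 and −1.69 (limma, adjusted p = 2.88e-05 and 3.49e-06). It was named after its values were seen, as was Nlrp1a above. Under IL-4, 7 of the 10 passed, against 40.3% of all tested genes, 2 upward and 5 downward (4 in all without replicate 2 and 3 without replicate 3). Nlrc3 stood at 19.7 ± 1.53 and Nlrc5 at 150 ± 19.1 after 4 h. Without replicate 3 the 4 h IL-4 change of Nlrc3 was −1.17 (adjusted p = 0.121) against −1.30.

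**Figure D4:**
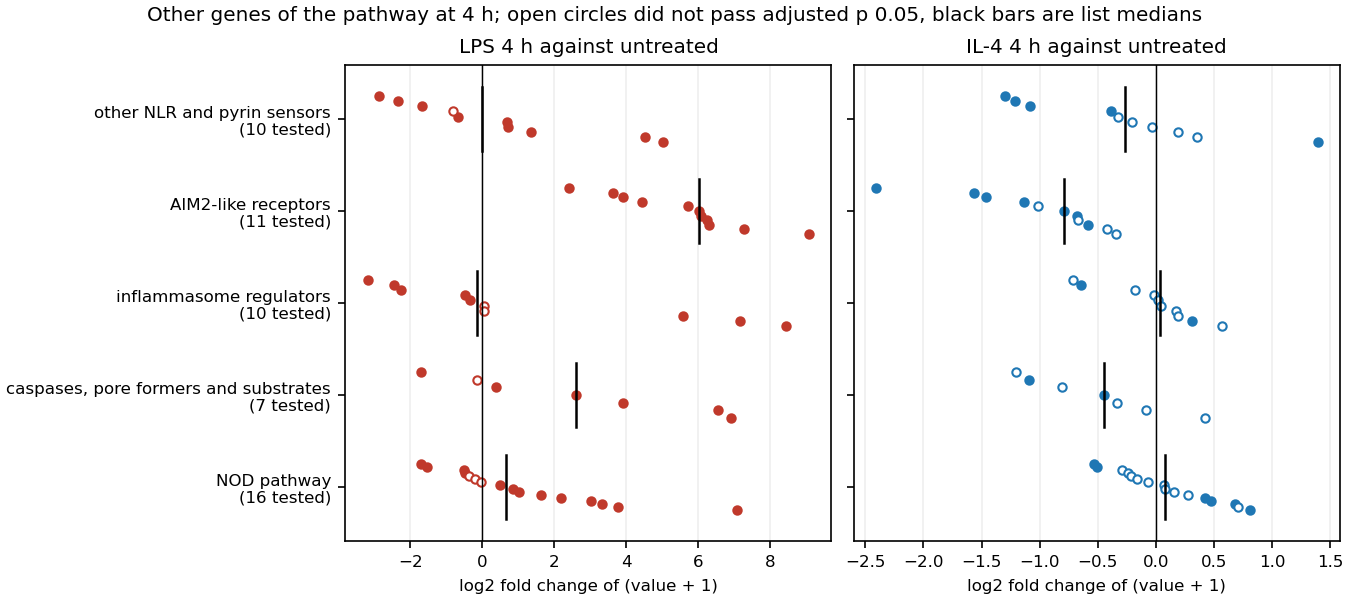
Log2 fold change of (value + 1) at 4 h of LPS (left) and IL-4 (right) for the tested genes of 5 lists, 1 point per gene, with a black bar at the list median. The panels have different horizontal ranges. The AIM2-like receptors have the highest LPS median at 6.02, and the inflammasome regulators straddle 0 with a median of −0.15.

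All 10 inflammasome regulators passed the LPS course, 3 upward and 7 downward (all tested genes: 87.6%, 32.9% upward and 54.7% downward). Those that rose were the guanylate-binding proteins Gbp5 and Gbp2, known for acting on bacterial membranes, and the nucleic acid sensor Zbp1. Gbp5 went from 24.0 ± 2.65 (SD, n = 3) to 10762 ± 266 at 2 h, Gbp2 from 17.0 ± 6.25 to 2576 ± 372 at 2 h and Zbp1 from 14.0 ± 4.58 to 698 ± 128 at 4 h. Among those that fell was P2rx7, the ATP-gated channel upstream of Nlrp3, with a largest change of −3.19 at 4 h (limma, adjusted p = 5.50e-11). Txnip fell as well, from 193 ± 8.5 to 10.0 ± 4.58 at 0.5 h of LPS. Both were named here after their LPS values were seen. Under IL-4, 4 passed upward and 2 downward, against 40.3% of all tested genes (2 in all without replicate 2 or without replicate 3), with Gbp5 at 72, 48 and 60 in the replicates after 1 h and Txnip at 96.7 ± 2.31 after 0.5 h, against 193 ± 8.5 untreated.

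Of the 7 other caspases, pore formers and substrates, 5 passed the LPS course upward and 2 downward (all tested genes: 32.9% and 54.7%). Il1b, the substrate of caspase-1, stood at 13.0 ± 9.64 (SD, n = 3) in untreated cells and at 4380 ± 541 at 0.5 h of LPS, Il1a at 1.33 ± 2.31 and at 1075 ± 41.4 at 1 h, and Il18 at 98.7 ± 24.8 and at 1481 ± 186 at 4 h. The Il1b and Nlrp3 groups thus both had a high value at 0.5 h, while Il18 was higher late like Casp1. Under IL-4, 4 passed and all were lower (1 in all without replicate 2 or without replicate 3). Of all tested genes, 40.3% passed and 20.9% had a largest change downward. Il18 stood at 46.3 ± 14.4 (log2 fold change −1.09) and Casp8, the apoptotic caspase, at 349 ± 42.5 against 474 ± 43.1 (−0.44) at 4 h. The Il18 change was −1.09 without replicate 2 (adjusted p = 0.176) and −1.15 without replicate 3 (adjusted p = 0.0954), and that of Casp8 −0.40 without replicate 2 (adjusted p = 0.122). Il18, Il1a, Il1b, Nlrc5, Gbp2, Txnip and Slc15a3 overlap other annotated genes, and it was not stated if strand was used in counting.

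In the NOD pathway, 16 of 17 genes were tested and all passed the LPS course, as most genes did (87.6%), 11 upward and 5 downward (all tested genes: 32.9% and 54.7%). Ripk2, the kinase that both NOD proteins recruit, stood at 164 ± 18.5 (SD, n = 3) untreated and at 1739 ± 169, 2532 ± 97.5, 3251 ± 306 and 1641 ± 117 over the LPS course. Tnfaip3, which encodes the ubiquitin-editing inhibitor A20, went from 21.0 ± 6.56 to 4691 ± 209 at 0.5 h, and Slc15a3, a transporter of muramyl dipeptide, from 118 ± 0.577 to 1626 ± 92.7 at 4 h. IL-4 also raised Ripk2, to 1454 ± 455 at 0.5 h (log2 fold change 3.09 ± 0.23 SE, limma, adjusted p = 7.09e-07), 1143 ± 296 at 1 h, 403 ± 65.7 at 2 h and 287 ± 6.0 at 4 h. Tnfaip3 rose to 75.3 ± 34.2 at 0.5 h of IL-4 (1.75, adjusted p = 0.0112), which did not pass without replicate 2 (1.82, adjusted p = 0.161) or without replicate 3 (1.80, adjusted p = 0.105). In this list 10 of 16 passed the IL-4 course (all tested genes: 40.3%), 6 upward and 4 downward, and 5 passed without replicate 2 or without replicate 3.

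Pearson correlation of group means over the 9 groups described which other tested genes had courses most like those of 4 members. Only genes with a mean of at least 50 in at least 1 group and no overlap with the member were ranked. The groups share the untreated libraries, depth and scaling, so the values are a description. For Nlrp3 they were Rab20 (r = 0.994), Snx18 (0.993) and Scyl2 (0.992), and for Nod1 they were Zc3hav1 (0.994), Isg20 (0.994) and Lrch3 (0.991). The nearest courses to Casp4 were those of the chemokine genes Ccl4 (0.993) and Ccl3 (0.992) and of Socs3 (0.991), and to Pycard those of Dennd2d (0.982), Mfap3l (0.974) and Abi3bp (0.972). Of these genes, Rab20, Lrch3 and Dennd2d overlap other annotated genes. Among the members themselves, Nod2 and Casp4 were the most alike (r = 0.974), followed by Aim2 with Casp4 (0.964) and with Nod2 (0.963), while Nlrp3 and Pycard had an r of −0.06. Nlrp1b had a negative r with every other member, and the lowest was that with Gsdmd (−0.957).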

How the data were processed

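Chromatin-associated RNA of 27 BMDM samples was sequenced single-end by the authors from Smart-seq2 libraries with random primers. Per the labels and the study's methods, reads were aligned to mm10 with TopHat2 2.1.1 and RefSeq transcripts, multi-mapping reads and blacklisted regions were removed (bedtools 2.29.2), and reads were counted per gene on GRCm38.p6. The authors scaled the libraries on invariant genes, and the deposited values are normalized counts rounded to whole numbers, treated here as a score. Whether introns were counted and whether strand was used are not given in the sources used here, so levels were not compared between genes. The study's impulse model needs raw counts and was not run.

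Tests used limma 3.58.1 with a trend (R 4.3.3) on log2(value + 1), with Benjamini-Hochberg adjustment over the 13901 genes with at least 10 in at least 3 samples and a threshold of 0.05. The +1 understates changes of low genes. Each course was fitted on its 15 samples and the direct contrast on all 27, with 3 replicates per group. A call in a course has the direction of its largest change. The code was tested on simulated data. Depth in raw reads is unknown, so no counting intervals are given.

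All 9 members are named. From each list, up to 3 genes after LPS and 2 after IL-4 are named, those with the largest change among genes past the F test with a mean of at least 50 in the higher group. For 4 members, the 3 genes with the most similar course are named, among genes with a mean of at least 50 in at least 1 group that do not overlap the member. The members and lists were chosen with earlier results of these data known. Alternatives were another pseudocount, no filter, a higher filter, equal totals, median-of-ratios scaling, a replicate block, averaging of replicates 2 and 3, 1 fit of all samples and leaving out each replicate number.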

Additional observations from a re-analysis of the deposited data

Results flagged for a closer look

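For 5 of the 9 members, LPS and IL-4 moved the gene in opposite directions against untreated cells at the same time, both past the threshold, and the direct contrast of the stimuli (LPS minus IL-4, log2 scale, limma) passed as well. The share of all tested genes that met this rule was not counted, so the number of members is not read as unusual. Taken separately, 26.9% of tested genes were called higher at 2 h of LPS and 13.2% lower at 2 h of IL-4. Nlrp3 was flagged at 2 h (3.26) and at 4 h (3.47). Aim2 was flagged from 1 h on (1.86, 4.10 and 3.56). Nod2 was flagged at all 4 times, with differences of 3.53, 4.79, 5.82 and 5.37 in time order. Casp1 was flagged at 2 h (4.04), and Casp4 at 2 h (5.83) and 4 h (5.00). In each of these cases the 3 LPS samples lay above and the 3 IL-4 samples below every untreated sample. The cases were selected by tests on these same samples, so this lack of overlap is a description and adds no support. The IL-4 side of these patterns is the smaller one, and some of its calls were lost when 1 replicate number was left out: those of Aim2 at 1 and 4 h and of Casp1 at 2 h without replicate 2 or without replicate 3, that of Aim2 at 2 h without replicate 2, those of Nod2 at 0.5 and 1 h without replicate 2 or without replicate 3, and that of Nlrp3 at 4 h without replicate 3.

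Nlrp1b changed direction within the LPS course, from a rise at 0.5 h to a fall at 1 h, and the step between these times was −1.30 (limma, adjusted p = 6.12e-07). With equal library totals the rise at 0.5 h was 0.06 (adjusted p = 0.723). The causes of these patterns were not tested.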

How the results depend on the processing

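Over 180 member-by-comparison values, 1790 of 1924 alternative values stayed on their side of the threshold, 93 kept the direction but lost the call and 36 gained one. The other 5 changed direction, with a call in the main setting, the alternative or both. Values that passed in neither setting were counted as unchanged even where the sign differed. Casp1 at 0.5 h of LPS, for example, was 0.08 as deposited and −0.42 with equal totals. With equal totals, Gsdmd at 1 h of LPS was −0.16, and the largest change of the course was −1.63 for Pycard under LPS and −0.73 for Nlrp3 under IL-4. Leaving out 1 replicate number put those courses at −1.42 (without replicate 2) to 1.56 and at −0.75 (without replicate 2) to 0.83. In these courses another time point became the largest. The number of members called was 2 at the LPS step from 2 to 4 h, and 0 with replicates 2 and 3 averaged or, at the lowest, with 1 replicate left out, where it reached 3. Over all tested genes that step called 3190 in the main setting, 1373 with averaging and 1115 to 4397 with 1 replicate left out. With replicates 2 and 3 averaged, IL-4 called 1 member at 1 h, 1 at the step from 0.5 to 1 h, 1 at the step from 1 to 2 h and 0 at the step from 2 to 4 h, and with no filter 1 at 1 h. Averaging called 1450 of all tested genes at 1 h of IL-4 and 110, 234 and 36 at the 3 steps. No filter called 2482 of 30272 genes at 1 h. Leaving out 1 replicate number gave 1 to 3 members at 0.5 h of IL-4, 0 to 5 at 1 h, 3 to 6 at 4 h, 0 to 6, 1 to 3 and 0 to 1 at the 3 steps and 3 to 7 in the course. Calls over all tested genes also moved, to 773 to 2953 at 0.5 h (2265 with all samples), 1305 to 3814 at 1 h (2913) and 1584 to 4361 at 4 h (3598). The 3 steps then called 68 to 1930, 166 to 1936 and 11 to 1402 genes, and the course 2169 to 6546. The cause was not tested. In the lists, the IL-4 course without a filter called 1 of the caspases, pore formers and substrates in place of 4. Over all tested genes that course called 4816 of 30272 without a filter, in place of 5606 of 13901. Pycard had no value with a mean of at least 50 required.

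Same replicate numbers deviated together from their group means, with correlations from 0.0897 upward. The median correlation was 0.499, 0.224 and 0.290 for numbers 1, 2 and 3, against −0.309 between different numbers. Of 27 samples, 19 were closest to their own number. The labels do not say what a number marks, so the numbers were not taken to pair the samples. With the replicate block, IL-4 called 5 members at 1 h, 5 and 5 at the first steps and 3 at the last, in place of 2, 3, 3 and 1, and in other comparisons the counts stayed within 1.5 times. Over all tested genes the block called 4062 at 1 h of IL-4, in place of 2913. At the 3 steps it called 2099, 2319 and 1726 genes, in place of 1087, 1306 and 762.

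With 3 replicates per group and values as low as 5 for Pycard, small changes were not detectable. Against untreated cells, equal totals ended LPS calls of Nlrp1b (0.5 h), Aim2 and Gsdmd (1 h) and Pycard (2 h) and added calls of Gsdmd (0.5 h) and Pycard (1 h), and fold changes of low genes are understated by the pseudocount.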
